A study of Arabidopsis thaliana with 24 samples.

Results

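The RBOH (respiratory burst oxidase homologue) genes of Arabidopsis thaliana encode the plant NADPH oxidases. The family holds 10 genes: RBOHA (AT5G07390), RBOHB (AT1G09090), RBOHC (AT5G51060), RBOHD (AT5G47910), RBOHE (AT1G19230), RBOHF (AT1G64060), RBOHG (AT4G25090), RBOHH (AT5G60010), RBOHI (AT4G11230) and RBOHJ (AT3G45810). They were found by these identifiers in both deposited expression tables, 10 of 33469 genes in the table of the accession Col-0 and 10 of 32844 genes in the table of the accession Wassilewskija (WS) and its mutant sku5. An RBOH protein sits in the plasma membrane and passes electrons from NADPH inside the cell to oxygen in the cell wall, where the superoxide formed is turned into hydrogen peroxide. Calcium binding and phosphorylation switch the enzyme on, and the peroxide then acts on wall growth and as a signal. In Arabidopsis, RBOHC is known for root hair growth, RBOHD for defence and for fast signals that spread between tissues, RBOHF for stomata and the lignin of the endodermal barrier, and RBOHH and RBOHJ for the growth of pollen tubes.

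Poly(A) RNA of whole roots was sequenced after 2 suborbital flights and from ground controls, in 24 libraries that form 8 groups of 3. The Virgin Galactic flight (VG) carried wild-type Col-0 and wild-type WS at 10 days of age, and the Blue Origin flight (BO) carried wild-type WS and sku5, a stock in the WS background that carries a mutation in the cell wall protein gene SKU5, at 11 days. Microgravity lasted 3 minutes on each vehicle, after an ascent of up to 4.5 g (VG) or 3 g (BO) and before a descent of up to 3.5 g (VG) or 5.7 g (BO). All seedlings grew on plates of the same medium with 0.5% sucrose and were fixed in RNAlater after the flight. Black-out cloth covered the plates that flew, BO seedlings were put in fixative 33 minutes after the capsule landed, and BO ground plates stood in a cabinet at 26 °C and were harvested 1 h later than the flight plates. Flight, wrapping and, for BO, the hour of harvest and the stay in the cabinet changed together, so their parts cannot be told apart. The replicates of a group came from roots fixed in 1 tube, so p-values measure only the spread between these samples.

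Levels are given in FPKM, a read count divided by transcript length and by the size of its library, which allows levels of different genes to be compared. Read totals were not given, so the depth of each library is unknown. From the mean normalized counts that the authors deposited for their changed genes, 1 FPKM on 1 kilobase of transcript was worth a median of 31.0 counts over 1190 genes. That scale puts RBOHD near 3543 counts per library and RBOHI, the lowest member above 0, near 518. The scale is rough: the mean normalized count that the authors deposited for RBOHD itself was 4111. SKU5 itself stood at 3.17 to 9.85 FPKM in the 6 sku5 libraries and at 27.6 to 94.18 FPKM in the 12 WS libraries. Between 18176 and 18877 genes reached 1 FPKM in the WS and sku5 libraries. WS VG flight replicate 2, sku5 BO flight replicate 3 and sku5 BO ground replicate 3 stood apart on the third principal component of the WS and sku5 table, with scores of 37.32 to 45.02 against -18.37 to 16.18 for the others.

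Of the 10 members, 8 were measured in every library and 2 were listed at 0 in all 24. Over the 18 WS and sku5 libraries the mean level was 31.7 FPKM for RBOHD, 26.5 for RBOHF, 19.8 for RBOHG, 19.1 for RBOHB and 17.8 for RBOHC. RBOHE at 7.33, RBOHA at 7.30 and RBOHI at 5.25 FPKM were the lower members. In the 6 Col-0 libraries, which were normalized apart from the others, RBOHF led with 30.3 FPKM, followed by RBOHG at 20.7, RBOHD at 17.6 and RBOHB at 14.5. RBOHH and RBOHJ were listed at 0 in 24 of 24 libraries, and a list of 6 other pollen tube genes summed to 0.44 to 2.69 FPKM per library. As a check of the tissue label, root hair markers summed to 64.91 to 223.75 FPKM and endodermis markers to 137.25 to 558.54 FPKM per library, with no marker of either list at 0 throughout a group. Xylem markers summed to 92.99 to 222.71 FPKM, root cap markers to 5.23 to 17.16 and 4 leaf photosynthesis genes to 105.95 to 740.41 per library. The purity of the root samples was not tested.

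**Figure D1:**
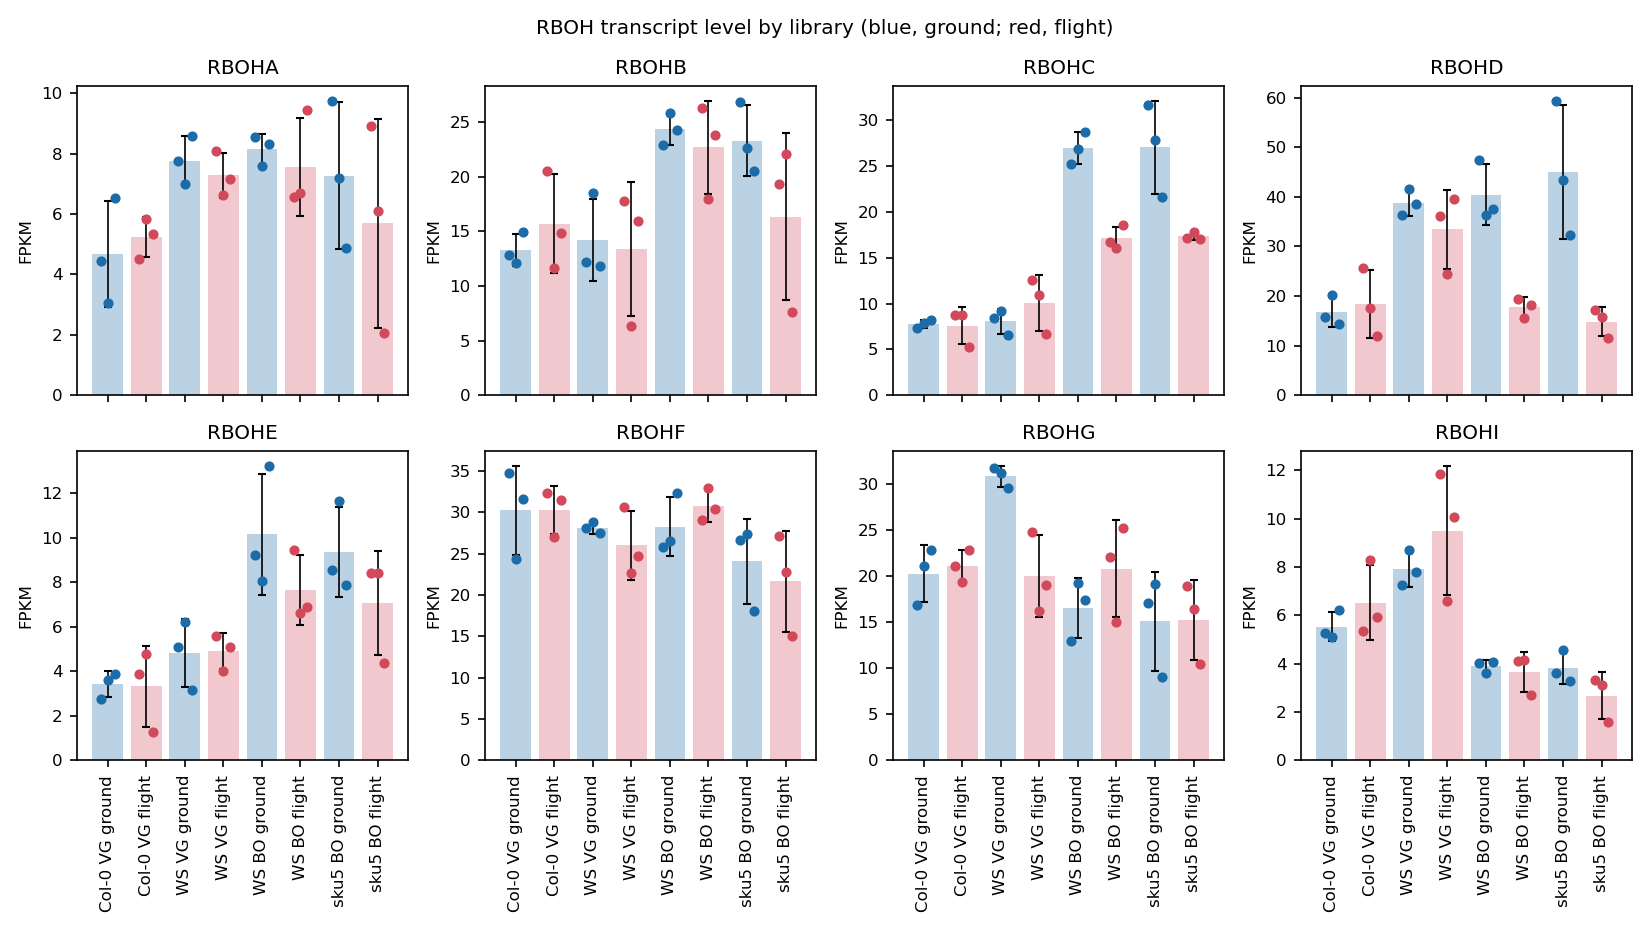
Transcript level of the 8 measured RBOH genes in FPKM (y axis, starting at 0 and scaled per gene) in the 8 groups (x axis), where bars are group means, error bars are the SD of 3 libraries and points are libraries, blue for ground and red for flight. RBOHD and RBOHC are lower in the red than in the blue points of both BO pairs, and RBOHF lies between 15.06 and 34.81 FPKM throughout.

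On the BO flight 2 members fell in WS, and 1 of them, RBOHD, passed the test in sku5. RBOHD, on which immune and calcium-dependent kinases act, and RBOHC, also called RHD2, stood lower in every BO flight library than in every BO ground library of the same line. In this bulk RNA, fewer cells that express a gene and less RNA per cell cannot be told apart.

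The 3 WS libraries flown on BO held 19.48, 15.55 and 18.26 FPKM of RBOHD, and the 3 ground libraries 47.52, 36.36 and 37.52. The highest flight value lay well under the lowest ground value, and the change was -1.14 on the log2(FPKM + 1) scale (SE 0.22, limma, adjusted p = 0.00311), or 0.454 of the ground level of FPKM + 1. In sku5 the flight libraries held 17.14, 15.74 and 11.56 FPKM and the ground libraries 59.39, 43.3 and 32.34. These groups did not overlap either, and RBOHD fell by 1.52 (SE 0.22, limma, adjusted p = 0.000512), to 0.350 of the ground level of FPKM + 1. The call held in all 14 other settings for each line, at -1.21 to -1.02 in WS and at -1.73 to -1.30 in sku5. With those 3 libraries left out, the change in sku5 was -1.57 (limma, adjusted p = 0.00038). In the authors' deposited table, RBOHD was lower on BO by 1.11 (SE 0.22) in WS and by 1.53 (SE 0.22) in sku5, and it was the only RBOH member in either list, of 865 and 923 genes. Those lists held no p-value above 0.01 in the authors' test, so absence from them is not set at the limma threshold used here. The 95% interval of the difference between the lines, sku5 minus WS, ran from -1.02 to 0.27 around -0.38, and the adjusted p was 1 in limma. Without the libraries named above that stood apart, that difference was -0.43.

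RBOHC, whose peroxide is known to drive the tip growth of root hairs, held 16.72, 16.08 and 18.54 FPKM in the WS BO flight libraries and 25.25, 26.81 and 28.73 in the ground libraries. Every flight value was lower, and RBOHC fell by 0.63 (SE 0.19, limma, adjusted p = 0.0465), to 0.648 of the ground level of FPKM + 1. That call was lost without any 1 of the 6 libraries compared, with adjusted p from 0.0815 to 0.139 in limma, while the change stayed between -0.68 and -0.58. In sku5 the flight libraries held 17.11, 17.79 and 17.09 FPKM and the ground libraries 31.68, 27.86 and 21.62. The groups were again apart, with a change of -0.60 (SE 0.19) that did not pass the test (limma, adjusted p = 0.0603). Without sku5 BO ground replicate 3 it was -0.74 and passed (limma, adjusted p = 0.0305), and without the 3 libraries that stood apart it was also -0.74 and did not (limma, adjusted p = 0.0517). The difference between the lines was 0.03, with a 95% interval from -0.55 to 0.61, and it was -0.11 without those 3 libraries.

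The promoters of these 2 genes are shown because both genes fell in WS on BO. Each is the 300 bases before the transcript start in the RefSeq annotation of TAIR10.1. RBOHD lies at chr5:19397041-19402061 on the plus strand with 8 exons, and its promoter at chr5:19396741-19397040. RBOHC lies at chr5:20757199-20762461 on the minus strand with 11 exons, and its promoter at chr5:20762462-20762761, read on the minus strand. Capitals mark the W-box core TTGAC, to which WRKY factors are known to bind, searched on both strands.
RBOHD: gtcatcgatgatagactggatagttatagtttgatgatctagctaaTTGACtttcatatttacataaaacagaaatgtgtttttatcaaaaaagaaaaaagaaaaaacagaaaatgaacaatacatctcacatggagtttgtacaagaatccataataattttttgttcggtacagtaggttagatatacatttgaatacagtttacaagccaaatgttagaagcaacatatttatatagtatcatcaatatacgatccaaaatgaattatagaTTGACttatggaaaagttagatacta
RBOHC: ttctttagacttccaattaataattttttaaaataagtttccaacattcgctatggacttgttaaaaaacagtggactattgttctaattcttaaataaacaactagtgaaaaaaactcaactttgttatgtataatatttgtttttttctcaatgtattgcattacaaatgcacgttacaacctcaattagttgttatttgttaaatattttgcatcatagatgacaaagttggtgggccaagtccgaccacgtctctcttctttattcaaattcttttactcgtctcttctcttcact
RBOHD held 2 matches, 254 and 26 bases before the start, and RBOHC held none. Of the 10 members, 6 held the core, against 50.4% of 27443 promoters of the same length, which is near the background. The G-box CACGTG was found in 0 members and 7.09% of promoters, the as-1 core TGACG in 0 members and 21.3%, and the heat shock element pair GAANNTTC in RBOHH and RBOHJ and 11.5%. TTGAC and TGACG can share 4 letters where they overlap as TTGACG.

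The 2 calls in WS BO were of 8 members tested, RBOHH and RBOHJ having missed the filter of 1 FPKM in 3 libraries, beside 11.7% of 20127 genes called in either direction and 6.15% called lower. In sku5 the single call stood beside 10.3% called and 5.25% called lower. Groups did not overlap for 2 of the 8 members in each line, beside 37.4% of all genes in WS and 26.1% in sku5. With 8 members tested, the 2 calls were 25% and the single call 12.5% of the members. The groups that did not overlap were 25% of the members in each line, a share near or under that of all genes. The members' median change was -0.11 in WS and -0.42 in sku5, beside -0.08 and -0.09 over all genes tested.

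The other 6 measured members did not pass the test in either BO flight comparison. RBOHF, the main partner of RBOHD in the stress responses of leaves, held 29.09 to 33 FPKM in flight and 25.81 to 32.33 on the ground in WS, a change of 0.13 with a 95% interval from -0.29 to 0.54. In sku5 its ranges were 15.06 to 27.09 and 18.1 to 27.41 FPKM, and the change was -0.16, with an interval from -0.57 to 0.25. RBOHG, the closest relative of RBOHC in coding sequence, changed by 0.30 (SE 0.27) in WS and by 0.04 (SE 0.27) in sku5. RBOHB, known for its role in germinating seeds, changed by -0.11 (SE 0.35) and -0.60 (SE 0.35). RBOHE, known from the tapetum of anthers, changed by -0.36 (SE 0.27) and -0.39 (SE 0.27). RBOHA and RBOHI changed by -0.11 and -0.09 in WS and by -0.42 and -0.42 in sku5. In these members the flight and ground ranges overlapped in both lines. When those 3 libraries were omitted, sku5 changed by -0.24 in RBOHB, -0.22 in RBOHE, -0.16 in RBOHA, -0.26 in RBOHI, -0.12 in RBOHF and -0.04 in RBOHG.

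**Figure D2:**
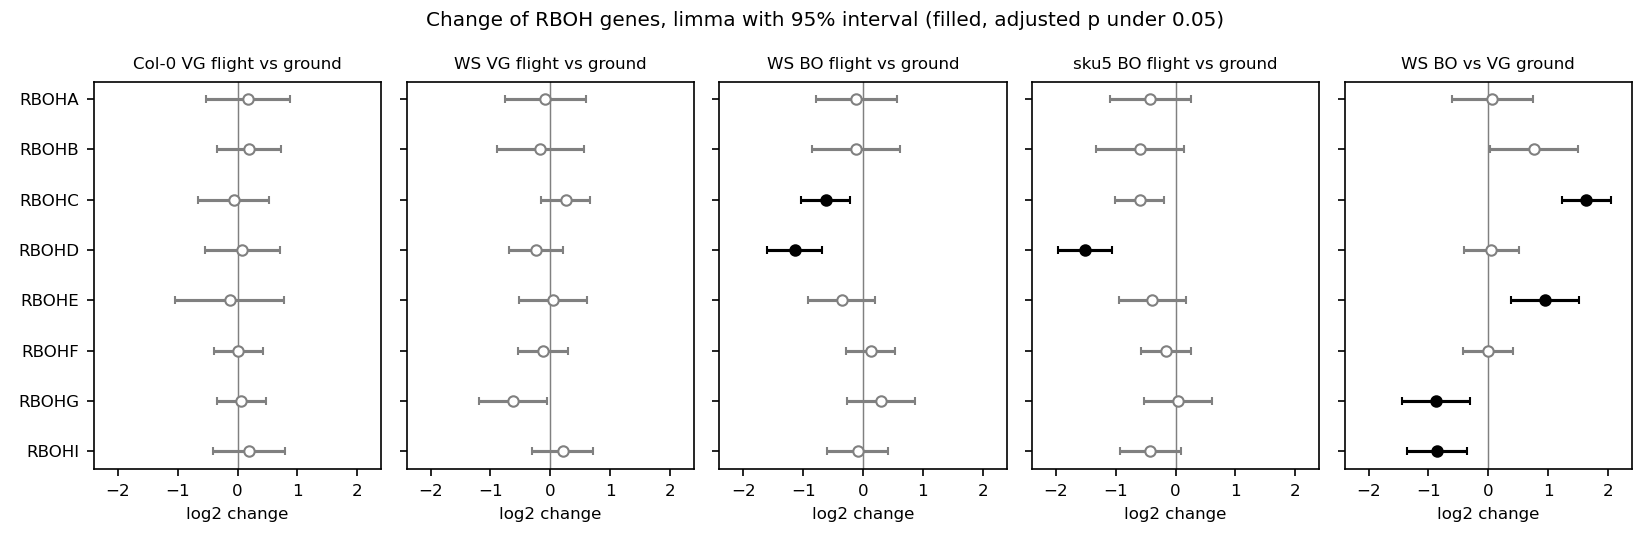
Change of the 8 measured RBOH genes on the log2(FPKM + 1) scale (x axis) in 5 comparisons, with points for the limma estimate, bars for its 95% interval and filled points for an adjusted p under 0.05. RBOHD and RBOHC lie left of 0 in both BO flight panels, no point is filled in the VG flight panels, and 4 members are filled in the comparison of WS ground samples.

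No member passed the test on the VG flight. In Col-0 the 8 tested members changed by -0.13 to 0.19, with flight and ground ranges that overlapped in every one, and limma called 0.00532% of 18786 genes while 10.3% did not overlap. No member had an unadjusted p under 0.05 there, and 926 of all genes did. RBOHD held 25.63, 17.66 and 11.97 FPKM in the flown Col-0 libraries and 15.83, 20.27 and 14.34 in the ground libraries. The flight values spread on both sides of the ground values, and the change was 0.08 with a 95% interval from -0.55 to 0.70. RBOHC held 8.72, 8.79 and 5.23 FPKM in flight and 7.33, 7.93 and 8.17 on the ground, a change of -0.07 with an interval from -0.66 to 0.53. In WS on VG, where 0.0298% of all genes were called, RBOHD held 36.23, 24.41 and 39.66 FPKM in flight and 36.33, 41.68 and 38.52 on the ground. Those ranges overlapped, with a change of -0.24 (95% interval -0.69 to 0.22), or -0.03 without the 3 libraries that stood apart, of which WS VG flight replicate 2 is 1.

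RBOHG was the member that differed most between flown and ground WS roots on VG. Its flight libraries held 24.85, 16.21 and 19 FPKM and its ground libraries 31.72, 31.23 and 29.54. All 3 flight values were lower, beside 14.7% of all genes whose groups did not overlap, whether higher or lower. The change of -0.62 (SE 0.27) did not pass the test (unadjusted p = 0.0352, adjusted p = 0.505, both in limma), and it was -0.48 without the 3 libraries that stood apart. RBOHC, at 12.56, 10.91 and 6.67 FPKM in flight and 8.44, 9.21 and 6.53 on the ground, changed by 0.26 (SE 0.19) and its ranges overlapped. The authors' deposited tables for VG, of 13 genes in Col-0 and 57 in WS, listed 0 members, and they too held no p-value above 0.01.

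Whether flight changed WS roots differently on the 2 vehicles was tested as the BO change minus the VG change. No member passed that test, in which limma called 6.83% of all genes. An unadjusted p under 0.05 in limma was found for 3 of 8 members and for 4783 of 20127 genes. The difference was -0.90 (SE 0.30, limma, adjusted p = 0.083) for RBOHD, -0.88 (SE 0.28, limma, adjusted p = 0.0632) for RBOHC and 0.92 (SE 0.38, limma, adjusted p = 0.153) for RBOHG. For RBOHD it passed without the 3 libraries that stood apart, at -1.11 (limma, adjusted p = 0.0136), and when the 12 WS libraries were fitted alone (limma, adjusted p = 0.0427). For RBOHC it passed without WS VG flight replicate 3, at -1.13 (limma, adjusted p = 0.0158), and without WS VG ground replicate 2, at -0.97 (limma, adjusted p = 0.0471). Vehicle, launch site, date, seedling age and the facility where the plates were kept changed together between VG and BO and cannot be told apart.

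The sku5 mutation was compared with WS within BO. No member passed the test on the ground, where limma called 0.0149% of all genes, and no member had an unadjusted p under 0.05 while 435 of all genes did. The ground ranges overlapped for all 8 members, beside 7.19% of all genes whose ranges did not, and the changes ran from -0.24 for RBOHF to 0.12 for RBOHD. Without the 3 libraries that stood apart they ran from -0.05 for RBOHF to 0.33 for RBOHD, and the changes of RBOHA, RBOHB, RBOHC, RBOHE, RBOHG and RBOHI went from below to above 0. In flight, where 0.0199% of genes were called, RBOHF held 27.09, 22.82 and 15.06 FPKM in sku5 and 29.09, 33 and 30.36 in WS. All 3 sku5 values were lower, in a comparison where 8.94% of all genes did not overlap, whether higher or lower. The change of -0.53 (SE 0.20) did not pass the test (unadjusted p = 0.0156, adjusted p = 0.89, both in limma), and it was -0.30 without the 3 libraries that stood apart. The other members' flight ranges overlapped between the lines.

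The 2 sets of WS ground samples, which were not flown, differed in RBOH transcripts. Between BO and VG ground roots 4 of the 8 tested members passed the test, beside 32.2% of all genes (16.9% higher at BO and 15.3% lower), and the groups did not overlap for 5 of 8, beside 50% of all genes. RBOHC and RBOHE were higher at BO, and RBOHG and RBOHI were lower. This comparison shares its ground samples with the flight comparisons above, so the values are not independent of them.

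RBOHC held 25.25, 26.81 and 28.73 FPKM in BO ground roots and 8.44, 9.21 and 6.53 in VG ground roots. The difference was 1.63 (SE 0.19, limma, adjusted p = 1.05e-05), a ratio of 3.10 in FPKM + 1, and the call held in all 14 other settings, at 1.51 to 1.74. Its 3 BO flight values in WS, 16.08 to 18.54 FPKM, lay between the BO ground and the VG values of both flight and ground. RBOHE held 9.23, 8.05 and 13.24 FPKM at BO and 5.1, 6.21 and 3.18 at VG, a rise of 0.95 (SE 0.27, limma, adjusted p = 0.0119). That call was lost without WS VG ground replicate 3 (limma, adjusted p = 0.0727) and without WS BO ground replicate 3 (limma, adjusted p = 0.0675).

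RBOHG held 12.99, 19.29 and 17.39 FPKM at BO and 31.72, 31.23 and 29.54 at VG, a fall of 0.88 on the log2 scale (SE 0.27, limma, adjusted p = 0.0203). The call was lost without WS VG ground replicate 1 (limma, adjusted p = 0.0562) and without WS BO ground replicate 1 (limma, adjusted p = 0.0949). RBOHI held 4.02, 3.6 and 4.09 FPKM at BO and 7.25, 8.7 and 7.79 at VG, and its change of -0.86 (SE 0.24, limma, adjusted p = 0.0111) held in all 14 other settings. RBOHB held 22.93, 25.84 and 24.33 FPKM at BO and 12.17, 18.54 and 11.85 at VG. Its groups did not overlap, yet the difference of 0.77 (SE 0.35) passed only when the 6 libraries were fitted alone (limma, adjusted p = 0.0123) or without the 3 libraries that stood apart (limma, adjusted p = 0.00396), against an adjusted p of 0.102 in the limma fit of all 18. RBOHD at 0.05, RBOHF at -0.00 and RBOHA at 0.06 did not pass the test, with 95% intervals from -0.41 to 0.50, from -0.41 to 0.41 and from -0.61 to 0.74.

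Markers of some cell types differed in this comparison too, in which limma called 32.2% of all genes, 16.9% higher at BO and 15.3% lower. Of 8 root hair markers 4 were higher at BO and 0 lower, with a median of 0.88 beside 0.04 over all genes. The count was 2 without WS VG ground replicate 1 or 3 or WS BO ground replicate 2 or 3, where LRX1 and RSL2 lost their calls, and 6 without WS VG ground replicate 2. The list was led by the wall-loosening expansin EXPA7 at 1.84 (SE 0.30) and the hair regulator RHD6 at 1.24 (SE 0.29). Their summed level was 160.24 to 202.09 FPKM in BO ground roots and 70.89 to 165.05 in VG ground roots. Of 8 endodermis markers 7 were higher and 0 lower, with a median of 1.17, and summed levels of 298.25 to 486.08 and 151.17 to 249.72 FPKM. The receptor kinase GSO1 at 1.15 (SE 0.18) and the peroxidase PER64 at 1.20 (SE 0.25) led that list. Of 4 leaf photosynthesis genes 3 were higher, with summed levels of 339.11 to 496.04 and 105.95 to 152.36 FPKM. Xylem and root cap markers gave 0 calls of 5 and of 3. The part of these markers in the RBOH values was not tested.

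On the BO flight no root marker passed the test, while some photosynthesis genes did. Limma called 0 of the root hair, endodermis, xylem and root cap markers in either line, with an unadjusted p under 0.05 for 0 of them in WS and 1 in sku5. Among all 20127 genes tested, 5243 in WS and 5027 in sku5 had an unadjusted p under 0.05, and limma called 11.7% and 10.3%. The root hair sum was 146.61 to 189.54 FPKM in flown WS roots and 133.94 to 148.22 in flown sku5 roots, against 152.55 to 223.75 in sku5 ground roots. RBOHC, a root hair gene, fell in WS beside root hair sums that overlapped between flight and ground, and in sku5 it was lower beside sums that did not overlap. Groups did not overlap for 37.4% of all genes in WS and 26.1% in sku5. Of the 8 root hair markers, 0 had an unadjusted p under 0.05 in limma in either line. Of the 4 photosynthesis genes 1 was higher in WS, where that call was lost without WS BO flight replicate 2 or ground replicate 1, and 2 in sku5, where 1 was lost without the 3 libraries that stood apart. Their level had sums of 583.71 to 649.5 and 605.1 to 740.41 FPKM in flight and of 339.11 to 496.04 and 330.09 to 453.5 on the ground. No gene of these lists was at 0 throughout a group, and their part in the fall of RBOHD and RBOHC was not tested.

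RBOHD took a smaller share of the family's summed level in BO flight than in BO ground roots. In WS on BO the sum was 159 ± 6.31 FPKM (SD, n = 3) on the ground and 128 ± 11.3 (SD, n = 3) in flight, and in sku5 it was 155 ± 33.9 and 101 ± 27.2 (SD, n = 3 each). RBOHD made up 22.6% to 30.4% of the sum in WS ground libraries and 13.5% to 14.6% in flight libraries, and 26.4% to 32.3% and 14.0% to 16.6% in sku5. On VG the sum was 141 ± 9.53 on the ground and 125 ± 25.2 in flight for WS, and 102 ± 5.82 and 108 ± 12.4 for Col-0 (SD, n = 3 each). The 3 libraries that stood apart had the lowest sum of their groups, at 97.78 FPKM in WS VG flight, 69.78 in sku5 BO flight and 117.62 in sku5 BO ground.

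**Figure D3:**
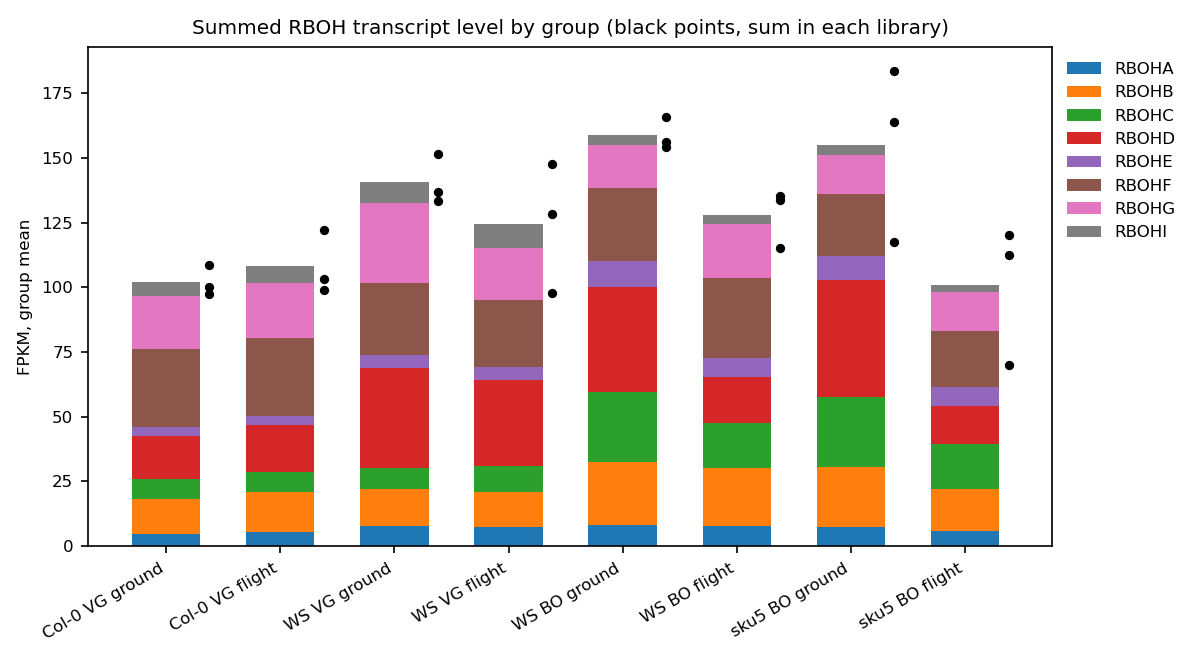
Summed level of the RBOH genes in FPKM (y axis, starting at 0) in the 8 groups (x axis), where stacked colours are group means of each gene and black points are the sums of single libraries. The red RBOHD segment is the one that shrinks most from ground to flight in both BO pairs, and sku5 BO flight holds the lowest single library at 69.78 FPKM.

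The members did not rise and fall as 1 block. Over the 18 WS and sku5 libraries, Pearson's r of log2(FPKM + 1) was 0.81 between RBOHA and RBOHF, 0.81 between RBOHB and RBOHE and 0.808 between RBOHC and RBOHE, but -0.686 between RBOHC and RBOHI and 0.0454 between RBOHC and RBOHD. After each group's mean was subtracted all pairs were positive, from 0.0203 for RBOHC with RBOHI to 0.817 for RBOHA with RBOHF. These libraries share groups, and the 3 that stood apart are among them, so the values are descriptions.

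Genes of a list of RBOH regulators, not all of which act on the RBOH proteins themselves, were followed on the BO flight. There limma called 11.7% of all genes in WS and 10.3% in sku5, and 9 of the 69 genes tested from all lists, or 13%, in each line. Of 20 regulators, 19 were tested, and in WS 1 was higher and 3 lower (21.1%), with a list median of 0.05 beside -0.08 over all genes. CPK11, a calcium-dependent protein kinase, was at 25.47 to 29.75 FPKM on the ground and 46.72 to 56.01 in flight, and rose by 0.88 (SE 0.15, limma, adjusted p = 0.00139). Its relative CPK4 fell by 0.50 (SE 0.14). OXI1, a kinase that peroxide activates, was at 8.8 to 12.61 FPKM on the ground and 4.41 to 6.48 in flight and fell by 0.94 (SE 0.27). AT5G35580 fell by 0.92 (SE 0.28). In sku5, CPK11 rose by 0.65 (SE 0.15), OXI1 fell by 1.12 (SE 0.27) and AT5G35580 fell by 1.54 (SE 0.28), with 0 other calls (15.8% called) and a list median of 0.01 beside -0.09. Without any 1 of the libraries compared, the number lower was 0 to 2 in WS and 1 to 2 in sku5, and the number higher 1 in WS and 0 to 2 in sku5. Of these, CPK11 in WS and AT5G35580 in sku5 kept their calls in all 14 other settings, and each of the others lost it in at least 3.

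Of 12 genes that handle superoxide and peroxide, 3 were higher and 0 lower (25%) on the BO flight in each line, beside 11.7% of all genes called in WS and 10.3% in sku5. Without any 1 of the libraries compared, 1 to 3 were higher in WS and 0 to 3 in sku5. Without the 3 libraries that stood apart, 2 were higher and 1 lower in sku5, and 3 were higher and 0 lower in WS. The catalase gene CAT1 rose by 1.22 (SE 0.27) in WS and 1.12 (SE 0.27) in sku5, its paralogue CAT3 by 1.07 (SE 0.30) and 1.07 (SE 0.30), and the aquaporin PIP2;4 by 1.38 (SE 0.27) and 1.05 (SE 0.27). Among 9 tested genes that respond early to reactive oxygen, the transcription factor WRKY40 rose by 1.41 (SE 0.25) in WS and by 0.81 (SE 0.25) in sku5, and the other 8 did not pass, so that 11.1% of this list was called, near the share of all genes. Without the 3 libraries that stood apart, CAT3 in sku5 was at 1.56, CAT1 at 1.60 and WRKY40 at 1.17, and PIP2;4 did not pass, at 1.04 (limma, adjusted p = 0.0517). Of the calls in this paragraph, those of PIP2;4 and WRKY40 in WS held in all 14 other settings.

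**Figure D4:**
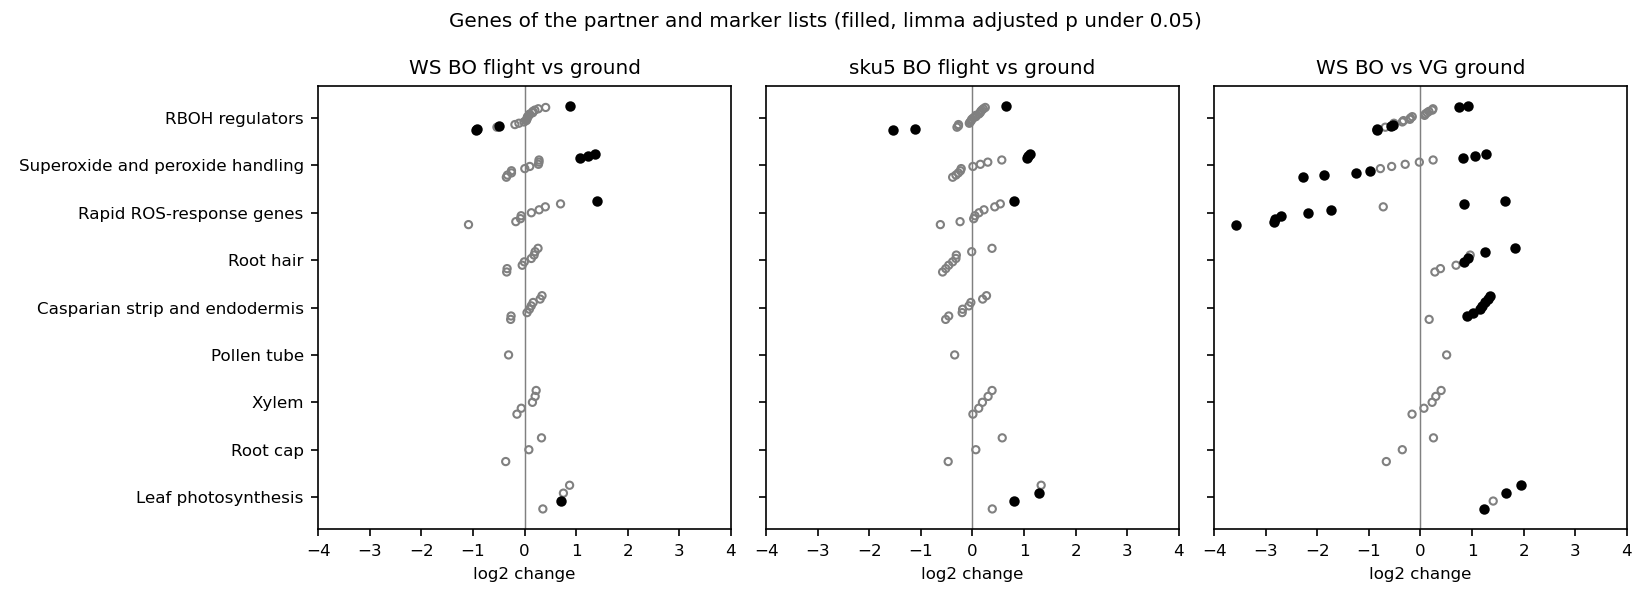
Change of single genes on the log2(FPKM + 1) scale (x axis) for 9 lists of RBOH partners and cell type markers (y axis) in 3 comparisons, with filled points for a limma adjusted p under 0.05. Rapid ROS-response genes lie far left in the comparison of ground samples, with 6 lower and 2 higher, while most points of the BO flight panels are open and near 0.

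On the VG flight, and between sku5 and WS on BO, 0 of the 67 list genes tested in Col-0 and 0 of the 69 in the other comparisons passed in limma. An unadjusted p under 0.05 was found for 3 of them in Col-0 and 12 in WS on VG, and between sku5 and WS for 1 on the ground and 1 in flight. Among all genes this held for 926 of 18786 in Col-0 and 1884 of 20127 in WS on VG. Between sku5 and WS it held for 435 on the ground and 963 in flight, of 20127 genes. Between WS ground roots at BO and VG, 35 of 69 list genes passed in limma, or 50.7%, beside 32.2% of all genes. Of 9 genes that respond early to reactive oxygen, 6 were lower at BO and 2 higher, with a median of -2.19, and the transcription factor genes ERF6 at -3.57 (SE 0.30), WRKY33 at -2.85 (SE 0.25), WRKY40 at -2.70 (SE 0.25) and ZAT6 at -2.19 (SE 0.21) had the smallest p. Of the genes that handle superoxide and peroxide, 3 were higher and 4 lower, among them the superoxide dismutase genes CSD1 at -2.27 (SE 0.22) and CSD2 at -1.88 (SE 0.15), the ascorbate peroxidase gene APX1 at 1.07 (SE 0.15) and the aquaporin PIP1;4 at 1.27 (SE 0.22). Of the regulators, 2 were higher and 4 lower, which at 31.6% is near the background, and the number lower was 2 to 3 without any 1 of the libraries compared. PLDALPHA1, a phospholipase D, was at 0.74 (SE 0.11) and OST1, a kinase of abscisic acid signalling that acts on RBOHF, at 0.93 (SE 0.24). CPK11 at -0.84 (SE 0.15) and PBL1, a receptor-like cytoplasmic kinase, at -0.85 (SE 0.16) were lower. The genes named here for this comparison kept their calls in all 14 other settings.

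Genes whose pattern was most like that of the 3 highest members were sought among 10063 candidates over the 18 WS and sku5 libraries. For RBOHD they were MYB4 (Pearson's r 0.956), GGP1 (0.947) and GLT1 (0.909), and after group means were subtracted MEE39 (0.899), AT5G03320 (0.890) and RLP12 (0.883). For RBOHF they were AT1G68820 (0.895), AT2G17150 (0.881) and DUR (0.878), and within groups GLIP3 (0.974), MAP3KA (0.957) and CRCK1 (0.957). For RBOHG they were PYL5 (0.939), AT5G49760 (0.926) and VEP1 (0.918), and within groups ZAR1 (0.962), VSR7 (0.961) and AT2G33390 (0.955). No gene was among the nearest to more than 1 member or by both measures. As the highest of many candidates, over libraries that share groups and include the 3 that stood apart, these r values are descriptions.

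The members' coding sequences were compared because near copies can share reads. In the 45 pairs, identity over aligned bases ran from 62.3% to 81.4% with a median of 64.1%, and the closest were RBOHH with RBOHJ at 81.4%, RBOHC with RBOHG at 77.0% and RBOHA with RBOHC at 70.0%. No run of 50 bases of a member's transcript occurred in another member or in a second place of the TAIR10.1 genome. The members lie on chromosomes 1, 3, 4 and 5, and their coding length was 2532 to 2859 bases in 8 to 14 exons. RBOHA, RBOHB, RBOHE and RBOHG overlap a gene on the other strand, by 169, 59, 133 and 37 bases, and whether the counting used strand is not given in the sources used here. RBOHC, RBOHD, RBOHF and RBOHI overlap none.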

How the data were processed

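Per the submitters' processing notes, the authors used Trimmomatic 0.36, FastQC 0.11.4, MultiQC 1.1, STAR 2.7.3a, RSEM 1.2.31 and DESeq2. The genome build is not given in the sources used here. The authors deposited FPKM tables for Col-0 and, normalized separately, for WS and sku5. Neither the labels nor the headers name the unit, but the deposited values behave as FPKM: sums weighted by transcript length varied by a CV of 1.02% and 1.09%. The authors' 4 deposited gene lists hold log2 fold changes with an SE on that scale, a p-value per gene and a mean level, a signal in normalized counts, per the file headers. Their header does not say whether that p-value is adjusted, and its largest value was near 0.01 in each list.

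Values were fitted with limma 3.58.1 (R 4.3.3) on log2(FPKM + 1), with a mean-variance trend. A gene needed 1 FPKM in 3 libraries of the fit. This left 18786 genes for Col-0 (4 residual degrees of freedom) and 20127 for WS and sku5 (12), with 9 comparisons, two-sided tests and Benjamini-Hochberg adjustment over all genes at 0.05. Fold changes on this scale understate those of low genes.

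Members and the 9 lists (76 genes) were chosen with earlier results of these data known, and 1 further list is not reported here. The text names all members, up to 4 called genes per list by smallest p, and the 3 genes most like each of the 3 highest members. Identifiers that the reference does not name are given as such. Leaving out the 3 libraries that stood apart was chosen after seeing the data. Other alternatives were a pseudocount of 0.1 FPKM, no filter or 5 FPKM, TMM-like and quantile scaling, only the libraries compared, a replicate block, and each library left out. Sequences were read from RefSeq TAIR10.1 with Biopython 1.88, and other steps used Python 3.11.15, pandas 2.3.3, numpy 2.4.6 and matplotlib 3.10.9.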

Additional observations from a re-analysis of the deposited data

Results flagged for a closer look

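Of 69 genes tested from the partner and marker lists, 4 (5.8%, beside 6.83% of all genes) changed differently with flight in WS on BO than on VG, by the test of that difference (BO change minus VG change, limma, adjusted over 20127 genes). The difference was 1.01 for the kinase gene CPK11 (adjusted p = 0.0109), 1.61 for the catalase gene CAT1 (adjusted p = 0.0223), 1.71 for the transcription factor gene WRKY40 (adjusted p = 0.0107) and 0.84 for the photosystem gene PSBO1 (adjusted p = 0.0498), all in limma. Those of CPK11 and WRKY40 were called in 20 of 20 other settings, that of CAT1 in 17 and that of PSBO1 in 5. CPK11, CAT1 and WRKY40 were also lower in BO than in VG ground roots, by 0.84, 1.25 and 2.70, and PSBO1 was higher by 1.66, in a comparison that shares its ground samples with this one.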

How the results depend on the processing

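Of 1087 values of members under other settings, 0 reversed a called change, 13 lost a call and 8 gained one, while 73 values that were not called before or after changed sign. The count of members called in WS BO flight fell from 2 to 1 with a pseudocount of 0.1 FPKM, with no filter and with a TMM-like factor, and to 1 (range 1 to 1) without any 1 of its libraries. RBOHC was lost each time (limma adjusted p 0.0557, 0.0558 and 0.0619 in the first 3) and RBOHD was kept. The count in sku5 BO flight rose from 1 to 2 with a filter of 5 FPKM, where RBOHC had an adjusted p of 0.0493 in limma, and ran from 1 to 2 with libraries left out. The count for the WS flight effect, BO minus VG, rose from 0 to 1 when only the libraries compared were fitted and without the 3 libraries that stood apart, and ran from 0 to 1 with libraries left out. With 1 library left out, the remaining libraries of a group are assumed to vary like the other groups. With the replicate number as a block, all counts stayed, 2 in WS BO flight (RBOHC adjusted p = 0.0479 in limma) and 4 between WS ground samples. The numbers were not shown to pair libraries: deviations of same-numbered libraries correlated at 0.0162 to 0.0315 in Col-0 and at -0.302 to 0.143 in WS and sku5, where 2 of 45 pairs passed 0.1. Of 57 called values of list genes, 35 kept the call in every setting and 0 reversed. Read depth is unknown, so no counting error could be given for these values.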
